A study of Rattus norvegicus with 15 samples.

Results

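Glutathione transferase transcripts were followed in cultured rat tracheal epithelial cells exposed to CSE, with or without the citrus flavanone naringenin. The genes were chosen by name, with earlier results of these data known. Gstp1, Gstm1, Gstm2, Gsta4 and Gsto1 encode cytosolic enzymes, and Mgst1 and Mgst2 encode membrane-bound ones. A row of that name was found for 6 of the 7 genes among the 21969 genes of the count table, and all 6 passed the filter on low counts. No row is named Gstm2. A neighbouring row named Gstm7 is described in the table as mu 2, and it is reported under its own name.

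Poly(A) RNA was sequenced in 15 libraries, 5 per group, from cells freed from rat trachea with pancreatin and differentiated over weeks in air-liquid interface culture, with medium on one side of the cells and air on the other. The first group received 100 µM naringenin 4 h ahead of 10% CSE and was exposed to CSE for 24 h. The second group received 10% CSE alone for 24 h, and the third, the control, had no treatment. The labels do not expand CSE, describe no vehicle and include no group with naringenin alone. They name no strain, age, animal or culture, and a p-value therefore reflects the spread among libraries alone, which may be technical.

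Glutathione transferases join the tripeptide glutathione to electrophilic compounds such as quinones, epoxides and unsaturated aldehydes, which makes these compounds more soluble and easier to export. The cytosolic enzymes act as dimers and fall into classes such as alpha, mu, pi and omega. The microsomal enzymes belong to a separate family of membrane proteins, some of which also reduce lipid hydroperoxides or make leukotrienes. In airway lining cells these enzymes are part of the first handling of inhaled reactive chemicals. Many of their genes carry antioxidant response elements (ARE), bound by the transcription factor NRF2, and some carry xenobiotic response elements (XRE), bound by the aryl hydrocarbon receptor AhR.

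The 250 bases ahead of the annotated start are shown for Gstp1, Mgst1, Gsta4 and Gstm1, because the first pair had higher counts with CSE and the second pair did not pass the test. Gsto1, also called higher with CSE, has an entry that is not printed. The sequences are from RefSeq on the rat build GRCr8, where 6 of the 7 names had an entry, run 5′ to 3′ on the strand of the gene and end at the base before the start. Their positions are chr1:210769706-210769955 on the minus strand (Gstp1), chr4:172760680-172760929 on the plus strand (Mgst1), chr8:87947015-87947264 on the plus strand (Gsta4) and chr2:198343384-198343633 on the minus strand (Gstm1). Capitals mark matches, on either strand, to the ARE core TGACNNNGC, the AP-1 site TGANTCA or the XRE core GCGTG.
Gstp1: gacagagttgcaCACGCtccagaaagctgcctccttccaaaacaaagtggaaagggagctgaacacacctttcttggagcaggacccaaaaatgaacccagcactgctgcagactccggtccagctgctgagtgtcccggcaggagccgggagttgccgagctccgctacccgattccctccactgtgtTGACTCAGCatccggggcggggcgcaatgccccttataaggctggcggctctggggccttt
Mgst1: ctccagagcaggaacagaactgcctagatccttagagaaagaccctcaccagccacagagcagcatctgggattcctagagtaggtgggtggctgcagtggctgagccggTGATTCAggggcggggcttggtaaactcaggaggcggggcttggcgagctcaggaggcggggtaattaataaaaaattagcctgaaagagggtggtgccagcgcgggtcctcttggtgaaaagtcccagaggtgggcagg
Gsta4: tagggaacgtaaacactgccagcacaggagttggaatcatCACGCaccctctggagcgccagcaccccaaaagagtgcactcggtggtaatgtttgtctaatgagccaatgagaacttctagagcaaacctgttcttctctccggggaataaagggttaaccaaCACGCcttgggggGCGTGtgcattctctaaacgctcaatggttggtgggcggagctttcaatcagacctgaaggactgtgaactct
Gstm1: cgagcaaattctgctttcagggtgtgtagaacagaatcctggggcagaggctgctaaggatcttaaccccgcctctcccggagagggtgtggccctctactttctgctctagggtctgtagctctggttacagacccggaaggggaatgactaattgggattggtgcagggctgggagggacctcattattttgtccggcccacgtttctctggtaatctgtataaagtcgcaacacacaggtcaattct

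The Gstp1 sequence holds 1 ARE core at bases -61 to -53 from the start, which overlaps an AP-1 site at -61 to -55, and 1 XRE core on the opposite strand at -238 to -234. In Mgst1 the only match is an AP-1 site at -140 to -134. Gsta4 holds 3 XRE cores, at -210 to -206, -86 to -82 and -73 to -69, of which the first and second lie on the opposite strand. The window of Gsto1, a gene called higher with CSE, holds none of the 3 motifs, and neither do those of Gstm1 and Gstm2. The table used has no entry for Mgst2, also called higher. Among 33469 rat promoter windows of the same length, 10.1% hold the ARE core, 6.34% the AP-1 site and 25.9% the XRE core. A match describes the letters of the window and was not tested as a binding site. Whether matches go with the changes in counts was not tested either.

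The libraries held 55.1 to 60.6 M counts each (1 M is 1e6), and 7.47% to 9.33% of the counts fell on mitochondrial genes. Clustering of the deviations from group means, with the number of library sets fixed at 3 by choice, gave sets that cut across the groups. Sets 1 and 2 hold 2 libraries from every group and set 3 holds 1. The sets were found from these same counts, and the labels give no batch. Epithelial markers were present in every library, with a summed level of 5432 to 6424 CPM in CSE with naringenin, 5336 to 7060 CPM in CSE and 7139 to 9673 CPM in control libraries (CPM is counts per 1e6, scaled by TMM). Of 7 epithelial markers, Epcam, Krt8, Krt18 and Cldn4 fell against control in both exposed groups. Of 10 multiciliated markers, 1 (Tekt2) fell in CSE with naringenin and 6 in CSE. The summed level of the 10 was 2436 to 3210 CPM in CSE with naringenin, 1868 to 2599 CPM in CSE and 2369 to 3863 CPM in control. Of 9 club and goblet markers, Pigr fell in both exposed groups. Summed over the 9, the level was 8107 to 9508 CPM in CSE with naringenin, 7359 to 8216 CPM in CSE and 11095 to 12732 CPM in control. Of 8 basal markers, Krt14 fell in both and Pdpn in CSE. The 8 together had 728 to 1301 CPM in CSE with naringenin, 600.3 to 1612 CPM in CSE and 1095 to 2014 CPM in control. Of 8 tested stromal markers, Cnn1 fell in both and Col1a1 and Tagln in CSE. All matched stromal markers together had 38.8 to 226 CPM in CSE with naringenin, 23.0 to 132.2 CPM in CSE and 158.6 to 590.0 CPM in control. No leukocyte marker (3 tested) and no endothelial marker (2 tested) passed, and their summed levels in CSE with naringenin, CSE and control were 4.06 to 13.0, 3.81 to 26.9 and 5.07 to 33.7 CPM for leukocytes and 2.31 to 4.41, 1.83 to 3.96 and 2.95 to 4.42 CPM for endothelium. The leukocyte marker Cd79a had no count in any CSE or control library, and Ptprc and Itgam had none in any library of CSE with naringenin. Among all genes tested, 10.4% were called lower in CSE versus control and 3.9% in CSE with naringenin versus control. The marker genes called in any comparison were named after their values were seen. The part of these shifts in the results that follow was not tested.

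Per transcript length, Gstp1 and Gstm1 were by far the most abundant of the 6 genes. In FPKM, the authors' length-scaled level, Gstp1 averaged 1648 ± 193 in CSE with naringenin, 2004 ± 248 in CSE and 1146 ± 224 in control libraries (SD, n = 5 each). Gstm1 averaged 1165 ± 130, 1165 ± 92.9 and 1033 ± 161 FPKM in the same groups. Gstp1 lay above Gstm1 in all 15 libraries, and both ranked between 15th and 56th of the 21969 genes in each library.

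Gsta4, Mgst1 and Mgst2 shared the next level, between 89.5 and 223.3 FPKM, and have no fixed order. Gsta4 was the highest of the 3 in 7 libraries, Mgst1 in 4 and Mgst2 in 4. Gsto1 was the lowest of the 6 genes in all 15 libraries, at 61.5 ± 4.12 FPKM in CSE with naringenin, 66.4 ± 5.84 in CSE and 53.7 ± 6.53 in control. The 6 genes summed to 3332 ± 301 FPKM in CSE with naringenin, 3761 ± 364 in CSE and 2610 ± 406 in control, of which Gstp1 and Gstm1 made up 84.4%, 84.2% and 83.3%.

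The make-up of that sum is given as shares per library, without a test. The share of Gstp1 was 47.1% to 52.5% in CSE with naringenin, 49.9% to 54.3% in CSE and 42.1% to 46.3% in control libraries. The share of Gstm1 was 32.4% to 37.4%, 30.0% to 32.1% and 38.6% to 40.5%. For both genes, neither exposed group overlapped the controls in its share. The shares are parts of 1 sum, so a rise of Gstp1 alone lowers the share of Gstm1. In FPKM itself Gstm1 overlapped the controls, at 1013 to 1332 in CSE with naringenin, 1021 to 1254 in CSE and 778 to 1173 in control.

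**Figure D1:**
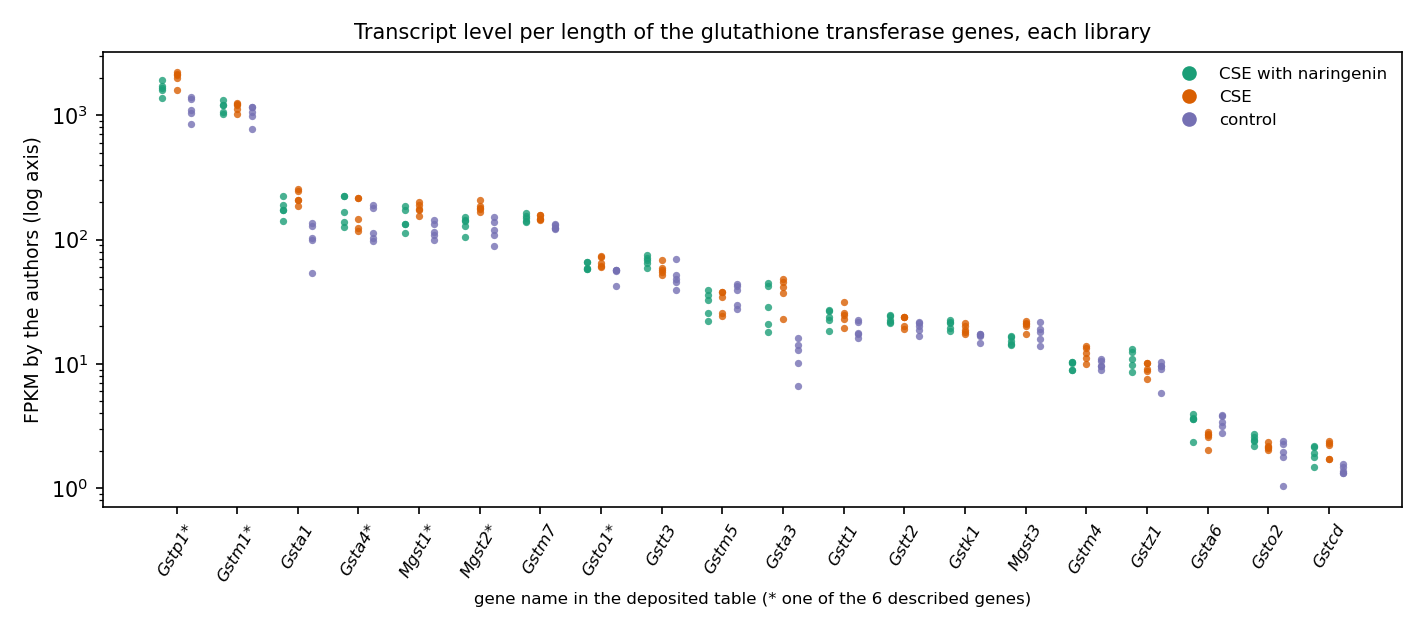
FPKM by the authors on a log axis for 20 glutathione transferase genes, ordered by their mean over 15 libraries; each point is a library, with CSE with naringenin left, CSE in the middle and control right at each gene, and an asterisk marks the 6 described genes. Gstp1 (mean 1599) and Gstm1 (1121) stand above all others, and Gsta1 (167.7), Gsta4 (158.4), Mgst1 (148.8), Mgst2 (146.1) and the row named Gstm7 (142.0) follow close together.

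CSE against control asks what exposure alone did to these transcripts. Gstp1, Mgst1, Mgst2 and Gsto1 rose and none of the 6 genes fell, with 4 of 6 higher by edgeR's quasi-likelihood test at a Benjamini-Hochberg adjusted p under 0.05. Among all 15860 genes tested, 21.2% were called, 10.8% higher and 10.4% lower. The 6 genes were chosen with earlier results of these data known, so their count is a description. For these 4 genes the CSE libraries lay wholly above the controls, which held in either direction for 14.6% of all genes. The median log2 fold change was 0.39 over the 6 genes and -0.0026 over all genes. In RNA from whole cultures, a change in the number of cells that express a gene and a change in RNA per cell cannot be told apart.

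Gstp1 encodes the pi-class enzyme, a major cytosolic transferase of many epithelia that also binds the stress kinase JNK. It is listed as ENSRNOG00000018237 on chromosome 1, bases 219291679 to 219294147 of the minus strand, in the deposited table, which does not state its build. CSE libraries held 1631, 1843, 1752, 1877 and 1394 CPM (replicates 1 to 5), against 1181, 1220, 909, 962 and 772 CPM in control libraries. All 5 CSE libraries were above the highest control, and the lowest of each group was replicate 5. This was a rise of 0.75 ± 0.13 (SE) in log2 fold change, or 1.68-fold (edgeR adjusted p = 0.00101). The call held in every alternative fitted, with adjusted p up to 0.00485.

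The membrane-bound pair rose by similar amounts. Mgst1, on chromosome 4 (172119331 to 172134607, plus strand; ENSRNOG00000007743), encodes a transferase of the endoplasmic reticulum and outer mitochondrial membrane that also reduces lipid hydroperoxides. It had 195, 182, 207, 184 and 168 CPM in CSE libraries, against 145, 155, 118, 123 and 113 CPM in controls. The groups did not overlap, and the log2 fold change was 0.52 ± 0.13 (edgeR adjusted p = 0.0104), a call that held in every alternative (adjusted p up to 0.0287).

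Mgst2, on chromosome 2 (140708397 to 140727281, plus strand; ENSRNOG00000061857), encodes an enzyme of the same membrane family that can also make leukotriene C4. CSE libraries held 73.1, 71.8, 78.1, 75.5 and 90.5 CPM, against 60.6, 66.1, 38.9, 46.9 and 53.9 CPM in controls. Replicate 5 was the highest CSE library, and the 2 controls of library set 1 were the highest controls. Its log2 fold change was 0.55 ± 0.13 (edgeR adjusted p = 0.00903), and this call too held in every alternative (adjusted p up to 0.027).

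Gsto1 encodes the omega-class enzyme, which works mainly as a glutathione-dependent reductase, of dehydroascorbate among others. Its row (ENSRNOG00000028746, chromosome 1, 267607418 to 267617387, plus strand) lies inside the span of Gsto2 on the same strand, so its counts are uncertain where reads could belong to either gene. CSE libraries had 72.3, 87.9, 72.5, 88.4 and 81.5 CPM, against 70.8, 69.4, 70.9, 71.0 and 54.8 CPM in controls. The groups did not overlap, yet the 2 CSE libraries of set 1 lay less than 2 CPM above the highest control, and control replicate 5 stood well below the other controls. The log2 fold change was 0.26 ± 0.09 (edgeR adjusted p = 0.0449). The call was lost without any 1 control library and without CSE replicate 2, 4 or 5 (log2 fold change 0.19 to 0.27, adjusted p 0.0530 to 0.107), and also with RLE scaling (0.0559), no filter (0.0607), only the 2 groups in the fit (0.0758) and counts summed per library set (0.0794).

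Gstm1 and Gsta4 did not pass the test. Other mu and alpha genes, some of which passed, are described further below. Gstm1, on chromosome 2 (210803869 to 210809306, minus strand; ENSRNOG00000029726), encodes a mu-class enzyme that conjugates epoxides and other aromatic electrophiles. It had 1351, 1559, 1459, 1505 and 1300 CPM in CSE libraries, against 1499, 1477, 1250, 1342 and 1031 CPM in controls. The groups overlapped, and the log2 fold change of 0.12 ± 0.10 had a 95% interval of -0.10 to 0.34 (edgeR adjusted p = 0.447).

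Gsta4, on chromosome 8 (85497557 to 85518879, plus strand; ENSRNOG00000030449), encodes the alpha-class enzyme specialised for hydroxynonenal, an aldehyde from lipid peroxidation. CSE libraries held 135, 243, 128, 240 and 168 CPM, against 114, 119, 217, 204 and 135 CPM in controls. The values followed the library sets, with set 2 high in both groups. Gsta4 had a log2 fold change of 0.21 ± 0.24 with a 95% interval of -0.30 to 0.73 (edgeR adjusted p = 0.575).

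**Figure D2:**
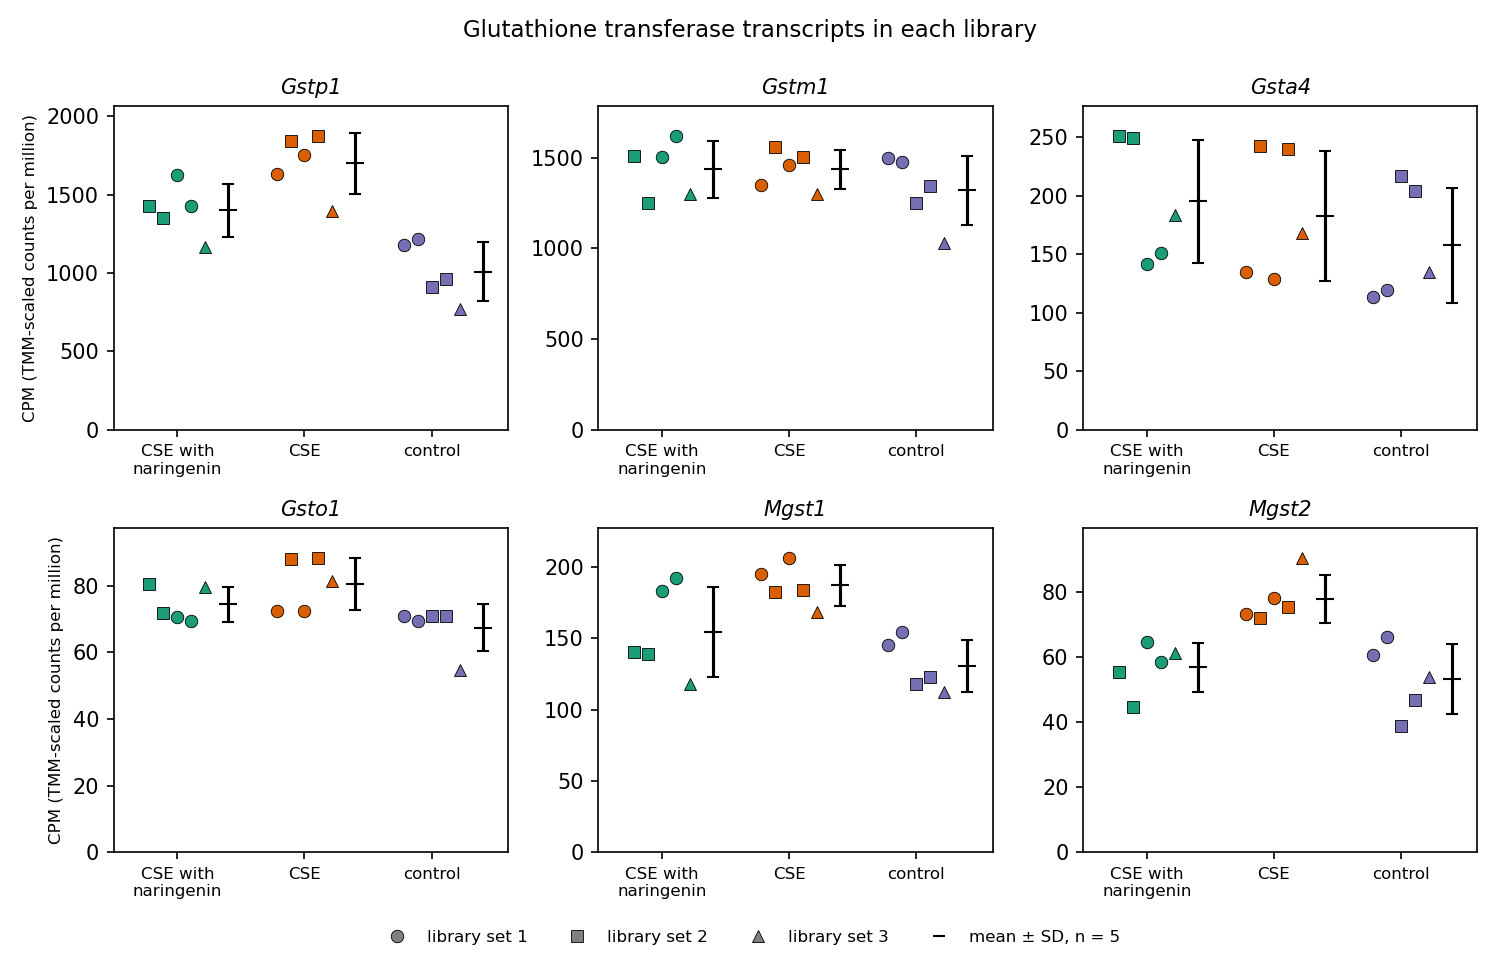
CPM (counts per 1e6, TMM-scaled) of each of the 6 genes in every library, with CSE with naringenin left, CSE in the middle and control right; symbols mark the library set, and bars are the mean ± SD of 5 libraries. CSE lies above control without overlap for Gstp1, Gsto1, Mgst1 and Mgst2, while Gsta4 splits by library set, with set 2 between 204.5 and 251.5 CPM in all groups.

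The row named Gstm7 (ENSRNOG00000018937, chromosome 2, 210720704 to 210782856, minus strand) spans several mu-class genes of its strand, Gstm6 and Gstm3l among them. RefSeq on GRCr8 lists Gstm7 and Gstm2 as separate genes with Gstm6 and Gstm3 between them, so the row may hold reads of more than 1 mu gene. It had 312, 352, 316, 344 and 324 CPM in CSE libraries, against 278, 302, 280, 280 and 312 CPM in controls. The log2 fold change was 0.18 ± 0.06 (edgeR adjusted p = 0.0431), a call that ended in 12 of 20 alternatives, with adjusted p up to 0.149. Among these were the fits without control replicate 1, 2, 3 or 4 and without CSE replicate 2, 3, 4 or 5 (adjusted p up to 0.109).

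CSE with naringenin against CSE alone asks what naringenin added to the exposure. None of the 6 genes passed the edgeR test, against 0.908% of all genes (0.334% higher and 0.574% lower). DESeq2 called 1 of the 6, Mgst2, and limma-voom called 0. The median log2 fold change of the 6 genes was -0.19, and of all genes 0.0046.

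Mgst2 had the lowest fold change of the 6. Libraries of CSE with naringenin had 55.3, 44.7, 64.5, 58.5 and 61.2 CPM, and the CSE libraries given above all lay higher, from 71.8 to 90.5 CPM. The groups thus did not overlap, as for 4.77% of all genes in either direction. The log2 fold change was -0.45 ± 0.13 with a 95% interval of -0.73 to -0.17 (edgeR adjusted p = 0.118), and DESeq2 gave an adjusted p of 0.0334.

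Gstp1 had 1426, 1351, 1624, 1430 and 1163 CPM in CSE with naringenin, which overlapped the CSE range of 1394 to 1877 CPM. Its log2 fold change was -0.28 ± 0.13, with a 95% interval of -0.55 to -0.01 (edgeR adjusted p = 0.357). Mgst1 had 141, 139, 183, 193 and 118 CPM, against 168 to 207 CPM in CSE, and a log2 fold change of -0.28 ± 0.13 with an interval of -0.55 to -0.0035 (edgeR adjusted p = 0.371). For Mgst1 the 2 libraries of set 1 lay within the CSE range and the other 3 below it.

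For the remaining genes the groups overlapped. Gsto1 had 80.6, 71.8, 70.6, 69.3 and 79.6 CPM in CSE with naringenin and a log2 fold change of -0.11 ± 0.09 (interval -0.30 to 0.07, edgeR adjusted p = 0.639). Gstm1 had 1508, 1249, 1501, 1622 and 1298 CPM and a log2 fold change of 0.00053 ± 0.10 (interval -0.22 to 0.22, adjusted p = 0.999). Gsta4 had 251, 249, 142, 151 and 183 CPM and a log2 fold change of 0.10 ± 0.24 (interval -0.42 to 0.61, adjusted p = 0.92).

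Adding the library set as a term beside group, an alternative chosen after seeing the data, called 3 of the 6 genes lower: Mgst1 (-0.30, edgeR adjusted p = 0.00466), Mgst2 (-0.46, adjusted p = 0.00534) and Gstp1 (-0.28, adjusted p = 0.0212). That fit called 2015 genes in all, against 144 without the term. The sets were formed from the spread within groups of these same counts. A term for them takes up part of that spread, so p-values of any fit with this term may be too small. With counts summed per library set and group, which treats libraries of 1 set as repeats, the same fit called none of the 6, and the adjusted p was 0.0688 for Mgst2, 0.0924 for Mgst1 and 0.175 for Gstp1.

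**Figure D3:**
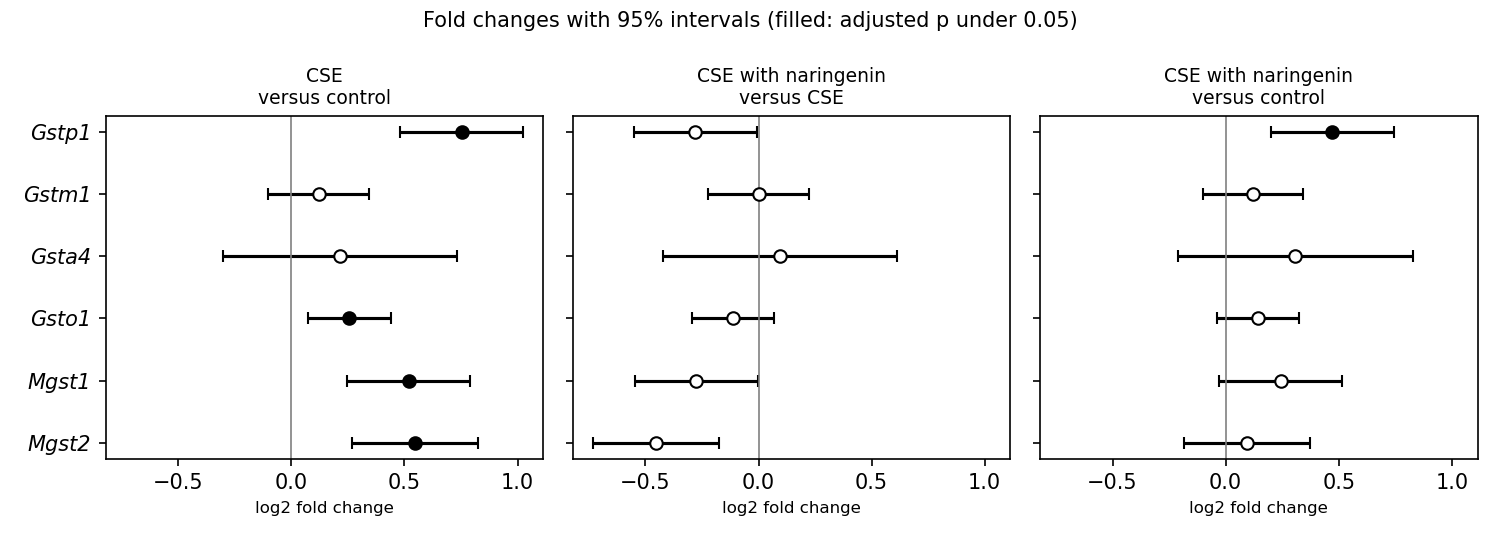
Log2 fold changes of the 6 genes (points) with 95% intervals (bars) in the 3 comparisons, filled where the edgeR adjusted p is under 0.05. Filled points stand at Gstp1, Gsto1, Mgst1 and Mgst2 for CSE versus control and at Gstp1 for CSE with naringenin versus control; for CSE with naringenin versus CSE all points are open, with Mgst2 lowest at -0.45.

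CSE with naringenin against control shares its controls with the comparison of CSE alone, so the 2 sets of values are not independent. Gstp1 was higher and was the only call among the 6 genes, against 8.16% of all genes called, 4.26% higher and 3.9% lower. For none of the 6 were the groups free of overlap, which was the case for 8.27% of all genes. The levels were 1163 to 1624 CPM in CSE with naringenin and 772 to 1220 CPM in controls, and the ranges overlapped only through replicate 5 of CSE with naringenin. The log2 fold change was 0.47 ± 0.13 (edgeR adjusted p = 0.0356). The call was lost without control replicate 3, 4 or 5, without CSE with naringenin replicate 1, 3 or 4 (log2 fold change 0.39 to 0.46, adjusted p 0.0585 to 0.0904), and with only the 2 groups in the fit (0.0704).

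Mgst1 stood at 0.24 ± 0.13 on the log2 scale (edgeR adjusted p = 0.264), Gsto1 at 0.14 ± 0.09 (adjusted p = 0.34), Gstm1 at 0.12 ± 0.10 (adjusted p = 0.526), Mgst2 at 0.09 ± 0.13 (adjusted p = 0.724) and Gsta4 at 0.31 ± 0.24 (adjusted p = 0.48). All 6 fold changes were above 0, with a median of 0.19 against 7.88e-05 over all genes. With the library set as a term Mgst1 passed (0.23, adjusted p = 0.00833), and with counts summed per set it did not (0.152). In Mgst2 the libraries of CSE with naringenin, at 44.7 to 64.5 CPM, lay within the control range of 38.9 to 66.1 CPM.

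Within the library sets, the changes of Gstp1 and of both membrane-bound genes had 1 direction. The log2 ratio of mean CPM in CSE over control was 0.49, 0.99 and 0.85 in sets 1, 2 and 3 for Gstp1, 0.42, 0.60 and 0.58 for Mgst1, and 0.26, 0.78 and 0.75 for Mgst2. For Gsto1 it was 0.05, 0.31 and 0.57, so that set 1 showed almost no difference. For Gstm1 it was -0.08, 0.24 and 0.33.

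In CSE with naringenin over CSE, the same ratio was -0.15, -0.42 and -0.26 for Gstp1, -0.10, -0.39 and -0.51 for Mgst1, and -0.30, -0.56 and -0.56 for Mgst2. Both comparisons were smallest in set 1 for these 3 genes. Set 3 rests on 1 library per group, and no test was made within a set.

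**Figure D4:**
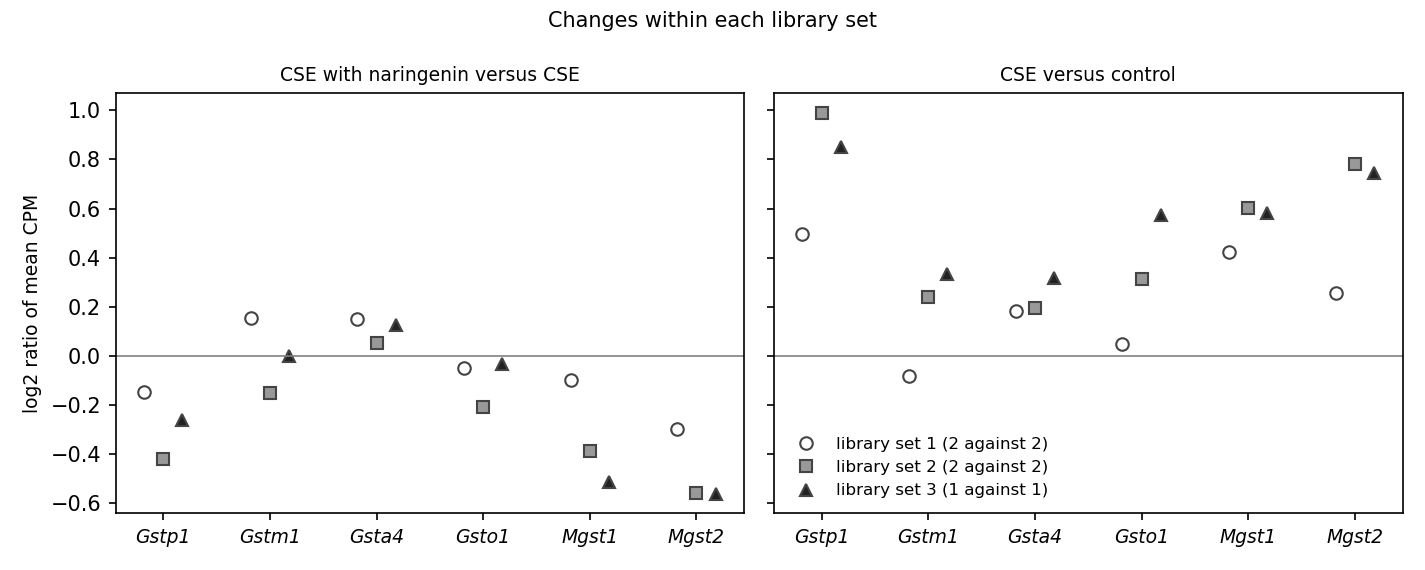
Log2 ratio of mean CPM within each library set for the 6 genes, in CSE with naringenin versus CSE (left) and CSE versus control (right); circles are set 1 and squares set 2 (2 libraries against 2), triangles set 3 (1 against 1). Gstp1, Mgst1 and Mgst2 lie below 0 on the left and above 0 on the right in all sets, while Gstm1 lies on both sides of 0 in both comparisons.

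Gsta4 varied more between library sets than between groups. Its level was 113.6 to 151.2 CPM in the 6 libraries of set 1, 204.5 to 251.5 CPM in the 6 of set 2 and 134.7 to 183.3 CPM in the 3 of set 3. The mean of set 2 was 1.78 times that of set 1, while for the other 5 genes this ratio ran from 0.82 to 1.11. Inside each set, CSE with naringenin was above control by 0.33, 0.25 and 0.44 on the log2 scale, and CSE by 0.18, 0.20 and 0.32. With the set as a term, Gsta4 passed the edgeR test in CSE with naringenin versus control (0.32, adjusted p = 8.47e-05) and in CSE versus control (0.21, adjusted p = 0.000929), and with counts summed per set the adjusted p was 0.0153 and 0.0288. The sets come from the same counts, so their split of Gsta4 is a description. For the same reason the p-values with the set as a term may be too small.

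Pairs of genes from 1 enzyme class or membrane family were compared by their ratio within each library. Mgst1 over Mgst2 had a mean log2 ratio of 1.43 ± 0.30 in CSE with naringenin, 1.27 ± 0.21 in CSE and 1.31 ± 0.20 in control (SD, n = 5 each). The differences were 0.16 for CSE with naringenin minus CSE (p = 0.373), 0.12 for CSE with naringenin minus control (p = 0.452) and -0.04 for CSE minus control (p = 0.786), by two-sided exact permutation tests whose smallest possible p is 0.00794. Gstm1 over the row named Gstm7, used because no row is named Gstm2, gave differences of 0.0058, -0.05 and -0.05 in the same order (exact permutation p = 0.937, 0.786 and 0.698). Over the 6 tests all Benjamini-Hochberg adjusted p-values were 0.937.

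The profiles of the 6 genes across the 15 libraries were set beside those of 13379 genes with a mean of at least 1 CPM, by the root mean square difference of standardised log2 CPM (0 is identical). Nearest to Gstp1 were Shpk (0.275) and Gsta3 (0.314), and nearest to Gstm1 were Tbxas1 (0.312) and Chst5 (0.329). Nearest to Gsta4 were Utp20 (0.200) and Uchl1 (0.252), to Gsto1 Ccdc149 (0.328) and Mrpl41 (0.438), to Mgst1 Csmd1 (0.269) and Pi4k2b (0.295), and to Mgst2 Acaa2 (0.330) and Hdgf (0.343). Among the 6 genes, Gstp1 and Mgst1 were the most alike (0.464), and Gsta4 and Mgst2 the least (1.575). These profiles share groups, library sets and depth.

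Beyond the 6 genes, 20 of 23 listed glutathione transferases and membrane-family relatives were tested. The list was chosen with earlier results of these data known, so its counts are a description. In CSE versus control 6 were called higher and 2, Gsta6 and Ptges, lower, with a median log2 fold change of 0.15. Of all genes, 10.8% were called higher and 10.4% lower, so the 2 lower calls are near the share over all genes. Among the 6 called higher, Gsta5 and Gsta2 had almost no control counts and passed the filter only through the exposed libraries. They are described apart, and a count that includes them cannot be weighed against the share over all genes. Gsta3 had 33.7 to 67.9 CPM in CSE and 10.1 to 23.8 CPM in control libraries (1.65 ± 0.28, edgeR adjusted p = 0.00108), and Gsta1 had 308 to 409 CPM and 92.5 to 224 CPM (1.03 ± 0.19, adjusted p = 0.00183). The Gsta1 row is described in the table as alpha-3, like the Gsta3 row, and encloses it on the opposite strand, so it is uncertain which of the 2 genes its reads come from. The other 2 that rose were Gstcd (0.49 ± 0.13, adjusted p = 0.0138) and the row named Gstm7; Gstcd, Gsta6 (-0.46 ± 0.14, adjusted p = 0.0316) and Ptges (-1.48 ± 0.48, adjusted p = 0.0399) were named after their values were seen.

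Gsta5 and Gsta2 were near the limit of detection without CSE. Gsta5, an alpha-class gene known in rats for handling aflatoxin epoxide, had 16, 28, 71, 49 and 19 counts in CSE with naringenin, 57, 72, 28, 100 and 16 in CSE, and 0, 0, 2, 0 and 2 in control libraries. Gsta2 had 9, 19, 23, 28 and 16 counts, 18, 13, 27, 27 and 9 counts, and again 0, 0, 2, 0 and 2 counts. Every exposed library lay above every control for both genes. They are counted among the calls against control in both exposed groups, but passed the filter on low counts only through the exposed libraries. Their calls and their lack of overlap are therefore a description and no support for a rise, and their p-values are not given. With so few control counts their fitted folds depend on the prior count and are not given either.

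None of the 20 passed in CSE with naringenin versus CSE, where 0.908% of all genes were called. With so low a share, the lack of a call among 20 genes says little. The median log2 fold change of the 20 was 0.02. Limits such as -0.69 to 0.12 for Gsta1 and -0.92 to 0.25 for Gsta3 bound the log2 fold change. With the library set as a term Gsta3 passed (-0.38, adjusted p = 0.0371), and with counts summed per set it did not (0.118). Against control, CSE with naringenin called 4 of 20, all higher, where 4.26% of all genes were called higher. Gsta5 and Gsta2 are among the 4, and by the limit given above they add nothing to that comparison with all genes. The others were Gsta3 (1.31 ± 0.28, edgeR adjusted p = 0.0108) and Gsta1 (0.74 ± 0.19, edgeR adjusted p = 0.027). The Gsta1 call was lost without control replicate 1 or 2 or CSE with naringenin replicate 1 or 3 (adjusted p 0.0507 to 0.0737), and with only the 2 groups in the fit (0.0705).

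The cofactor of all these enzymes is glutathione, and 13 genes of its supply and turnover, enzymes that break it down included, were tested. In CSE versus control 9 rose, Chac1 among them, and 1, the oxoprolinase gene Oplah, fell (median log2 fold change 0.61). Of all genes, 10.8% were called higher and 10.4% lower, so the 1 lower call is near the share over all genes. This list too was chosen with earlier results of these data known, and its counts are a description. Gclm, the modifier subunit of the rate-limiting ligase, averaged 1202 ± 93.8 CPM in CSE and 488 ± 26.0 CPM in control (2.46-fold, edgeR adjusted p = 3.49e-07), and Slc7a11, the cystine importer, 554 ± 134 and 109.7 ± 9.51 CPM (2.34 ± 0.22, adjusted p = 8.30e-06). The glutaredoxin gene Glrx rose by 0.60 ± 0.09 (edgeR adjusted p = 3.79e-04).

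Glrx was also the only gene of the 13 called in CSE with naringenin versus CSE, where 0.908% of all genes were called. Its levels in these 2 groups were 286 ± 25.2 CPM and 380 ± 36.0 CPM (-0.41 ± 0.09, edgeR adjusted p = 0.0417). The call was lost without any 1 of the 10 libraries (-0.45 to -0.37, adjusted p 0.0526 to 0.117), with no filter (0.0575) and with counts summed per library set (0.107). In CSE with naringenin versus control 5 of 13 were higher, against 4.26% of all genes. Among them were Gclm (1.05 ± 0.09, edgeR adjusted p = 7.99e-06), Slc7a11 (1.61 ± 0.22, adjusted p = 4.76e-04) and Chac1 (1.41 ± 0.36, adjusted p = 0.0259), which encodes an enzyme that degrades glutathione. The Chac1 call was lost without control replicate 3 or 4 or CSE with naringenin replicate 3, 4 or 5 (adjusted p 0.0541 to 0.065) and with limma-voom (0.068).

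Of 14 tested genes for export and further processing of the conjugates, 3 transporters rose and 2 processing genes fell in CSE versus control. Their list was likewise chosen with earlier results of these data known. Of all genes, 10.8% were called higher and 10.4% lower, so the 2 lower calls are near the share over all genes. Abcc4 averaged 97.8 ± 19.4 CPM in CSE and 24.4 ± 6.11 CPM in control (log2 fold change 2.00 ± 0.22, edgeR adjusted p = 3.05e-05), Abcc3 rose by 0.78 ± 0.16 (adjusted p = 0.00396), and Abcc1, a classical exporter of glutathione conjugates, by 0.37 ± 0.08 (adjusted p = 0.00713). Acy3, an aminoacylase that removes the acetyl group of mercapturates, had a log2 fold change of -0.71 ± 0.18 (adjusted p = 0.0108); the other that fell, named after its value was seen, was Kyat1. None of the 14 passed in CSE with naringenin versus CSE, where 0.908% of all genes did. In CSE with naringenin versus control 4 were higher, against 4.26% of all genes. These were Abcc4 (1.64 ± 0.22, edgeR adjusted p = 4.43e-04), Abcc1 (0.52 ± 0.08, adjusted p = 0.00207), Ggt1 (0.41 ± 0.09, adjusted p = 0.0142) and Abcc3 (0.68 ± 0.16, adjusted p = 0.0193). The Abcc3 call was lost without CSE with naringenin replicate 3 or 4 (adjusted p 0.0542 and 0.0514).

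Well-known targets of NRF2 and AhR, listed as induced genes with earlier results of these data known, were set beside these changes. All 9 tested rose in CSE versus control, against 10.8% of all genes, with a median log2 fold change of 2.52. That they rose was largely set by this choice and is not a result. Nqo1, a quinone reductase, had 3690 to 4047 CPM in CSE and 829 to 1308 CPM in control (1.80 ± 0.11, edgeR adjusted p = 2.10e-07), and Cyp1a1, an AhR target that oxidises aromatic hydrocarbons, 122 to 321 CPM and 2.21 to 4.68 CPM (64.0-fold, adjusted p = 7.02e-08). In CSE with naringenin versus CSE, Nqo1 stood at -0.32 ± 0.10 (edgeR adjusted p = 0.182) and Cyp1a1 at -0.89 ± 0.25 (edgeR adjusted p = 0.1). The Nqo1 groups did not overlap, as for 4.77% of all genes in either direction. Of the 9, only Hmox1, named after its value was seen, passed (-1.78), where 0.574% of all genes were called lower. Cyp1a1 passed with DESeq2 (0.0149), when the set was a term in edgeR (3.31e-04) and when counts were summed per set (0.0227, all adjusted p). Nqo1 passed when the set was a term (0.0134) and not on summed counts (0.177). Against control, CSE with naringenin left 8 of 9 higher, where 4.26% of all genes were. Nqo1 stood at 1.48 ± 0.11 (edgeR adjusted p = 2.87e-06) and Cyp1a1 at 5.11 ± 0.30 (edgeR adjusted p = 4.13e-07).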

How the data were processed

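The deposited table gives, per the file headers, counts per gene and library, whole numbers that were not normalized, and beside them FPKM values computed by the authors. Tools listed without role or order in the submitters' processing notes are HISAT2 2.0.4, cutadapt 1.9, StringTie 1.3.4d, UMI-tools, edgeR and DESeq2. The genome build, the merging of molecular identifiers and the use of strand in counting are not given in the sources used here.

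From the deposited counts, edgeR 4.0.16 (R 4.3.3; TMM, filterByExpr, quasi-likelihood F test) was fitted once to the 15 libraries, modelling group alone, and p-values were adjusted over 15860 genes (Benjamini-Hochberg, threshold 0.05). SE is that of the log2 fold change. FPKM were tested with limma 3.58.1 on log2(FPKM + 0.1), as an alternative. Others were RLE scaling, no filter, DESeq2 1.42.0, limma-voom, only the 2 groups compared, a replicate block, library set terms and leaving out each library. Scripts were tested on simulated counts.

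A total of 3 counts, the floor, equals 0.0495 to 0.0545 CPM, and covers counting error only. Replicates differed by a median chi-square per gene of 2.78 to 5.72 within a library set and 7.45 to 21.1 between sets, against 0.455 from sampling alone. No pair was thus 1 library deposited again and n counts libraries, but libraries of a set were closer, may repeat 1 culture and then are not independent. Of other lists, the up to 4 genes with the smallest adjusted p past the threshold were named, of which 1 is not reported here. Members and lists were chosen with earlier results of these data known. A ratio with Gstm2 was planned; the row named Gstm7 took its place.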

Additional observations from a re-analysis of the deposited data

Results flagged for a closer look

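Gsto1 in control replicate 5 lay far below the other controls, at 54.8 CPM against 69.4 CPM in the nearest one, a gap of 0.913 of the group's range where 0.71 is the critical value for 5 libraries (Dixon's test). It was the only one of 18 groups of libraries, 6 genes in 3 groups, and chance alone gives about 1 such group in 20. Without that library the log2 fold change of Gsto1 in CSE versus control was 0.19 and its edgeR adjusted p 0.0775.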

How the results depend on the processing

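For the 6 genes, 314 of 360 gene values under an alternative kept direction and side of the threshold, 20 lost a call, 9 gained one and 17 changed sign; the causes were not tested. Those 17, and 4 of the row named Gstm7, lay near 0, all within 0.05 on the log2 scale. In CSE with naringenin versus CSE, Gstm1 (0.00053) was -0.000287 with no filter, -0.00341 with limma-voom, -0.00262 and -0.00261 on log2(FPKM + 0.1) and log2(FPKM + 1), -0.00143 with only the 2 groups, -0.00077 with the replicate block, -0.00317 with the library set block and -0.00567 with counts summed per set. Leaving out 1 library gave -0.047 to 0.044 for Gstm1, -0.012 to 0.22 for Gsta4, -0.038 to 0.016 for Gstm7 and, versus control, -0.0040 to 0.18 for Mgst2. The ratio of Gstm1 to Gstm7 ran from -0.036 to 0.042 in CSE with naringenin versus CSE, -0.16 to 0.016 versus control and -0.17 to 0.010 for CSE versus control, and Mgst1 to Mgst2 from -0.10 to 0.053 for CSE versus control.

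Genes called numbered 144 in CSE with naringenin versus CSE, against 78 with no filter, 602 with DESeq2 and 36 to 93 without 1 library. In CSE with naringenin versus control 1294 were called, against 2052 with DESeq2, 833 with only the 2 groups and 755 to 1409 without 1 library. The library set block gave 6325, 2015 and 4192 calls for CSE versus control, CSE with naringenin versus CSE and CSE with naringenin versus control. Of the 6 genes, DESeq2 called 1 and the set block 3 in CSE with naringenin versus CSE (0 with group alone), and versus control (1) it was 0 with only the 2 groups, 3 with the set block, 2 with summed counts and 0 to 1 without 1 library. On log2(FPKM + 0.1), 64.6% of calls were higher in CSE versus control and 70.8% in CSE with naringenin versus control, against 50.9% and 52.2% on counts, while the members' directions were the same. Replicate numbers did not pair the libraries (same-number correlations -0.39 to 0.39, own number best in 5 of 15). The replicate block gave 300 calls in CSE with naringenin versus CSE and ended the Gsto1 call in CSE versus control (adjusted p 0.0741) and the Chac1 call in CSE with naringenin versus control (0.0542), and Cyp1a1 passed in CSE with naringenin versus CSE (0.0279).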
